A study of Mus musculus with 32 samples.

Results

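CD11b-positive, Ly6C-positive, MHC class II-negative myeloid cells, named population A by the submitters, were sorted from EG7 tumours and compared between mouse hosts that lacked TNFR1, a receptor for tumour necrosis factor whose gene is Tnfrsf1a, and hosts that carried it. The comparison took every population A array whose label names TNFR1-/- (4 arrays) against every population A array whose label does not (4 arrays), that is 8 of the 32 arrays of the series. The arrays without TNFR1 came from TNFR1-/-; Myd88flox/flox; Tie2-Cre hosts (the double knockout, 2 arrays) and from TNFR1-/- hosts (2 arrays). The arrays with TNFR1 came from Myd88flox/flox; Tie2-Cre hosts (Myd88 cKO, 2 arrays) and from WT hosts (2 arrays). All hosts carried the same transplanted EG7 line, an ovalbumin-expressing derivative of the EL4 T-cell lymphoma, and the labels give no host age or sex. The receptor was lost in every host cell, whereas Tie2-Cre removes Myd88 from endothelial and blood-forming lineages, and the tumour cells kept both genes. The 8 arrays of MHC class II-positive, Ly6C-negative cells (population C) from the same 4 kinds of host served for the test of difference between populations.

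TNFR1 is the main signalling receptor for tumour necrosis factor on most cells. When engaged it assembles Tradd, Ripk1, Traf2 and the cellular inhibitors of apoptosis, which leads to NF-kB activity and inflammatory gene expression, or, through Fadd and Casp8, to cell death. In tumours the ligand is made largely by myeloid cells, which also respond to it. Ly6C-positive cells in a tumour are mainly recently recruited monocytes, and they mature into macrophages that take up lipid, clear dead cells and remodel matrix.

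No gene met an adjusted p under 0.05 for the loss of TNFR1 in population A (0 of 15135 genes tested, 0%), and the smallest adjusted p was 0.191, for Cdh5, by limma with Myd88 status as a block. At an unadjusted p under 0.05 there were 1187 genes (7.84%), of which 557 (3.68%) were higher and 630 (4.16%) were lower in hosts without TNFR1. All 4 arrays without TNFR1 lay above the other 4 for 152 genes (1%) and below them for 217 genes (1.43%). Within a single Myd88 background 0 genes were called either, and 1854 genes (12.2%) with Myd88 intact and 505 genes (3.34%) with Myd88 deleted had an unadjusted p under 0.05. The unadjusted count depended on single arrays: it was 1892 without the second double-knockout array, 729 without the first, and 508 without the second TNFR1-/- array. The 6 lower genes of smallest p include the endothelial genes Cdh5 and Emcn and the macrophage genes Gpnmb and Cd36, and the 6 higher ones include the interferon-inducible GTPase Igtp. The same contrast in a fit that also held the population C arrays, which share the estimate of spread, called 20 of 15902 genes (0.126%), 4 higher (0.0252%) and 16 lower (0.101%), and that fit was chosen after the data had been seen. Its count ran from 3 without the first double-knockout array to 732 without the second. All values below are log2 signals or differences of log2 signals, hosts without TNFR1 minus hosts with it, given with their standard error, and values of different genes are not comparable as levels.

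The sorted cells carried the transcripts of their gate. Ly6c2 read 11.31 to 12.93 in population A and 7.88 to 9.99 in population C, and H2-Ab1 read 9.21 to 11.98 in population A and 12.3 to 12.91 in population C. Markers of eosinophils had higher signal in population A, where Siglecf read 7 to 10.26 and Ccr3 6.76 to 10.4, against 5.01 to 6.24 and 4.45 to 5.64 in population C. The arrays had medians of 5.37 to 5.5, and the correlation with the other array of the same host group was lowest between the WT arrays (0.921) and highest between the Myd88 cKO arrays (0.973). Xist, which is made by the inactive X chromosome of females, read 10.22 and 5.92 in double-knockout arrays and 5.36 and 5.29 in TNFR1-/- arrays, against 5.18 and 8.43 in Myd88 cKO arrays and 10.1 and 9.45 in WT arrays. Within the Myd88-intact hosts Xist was low in both arrays without TNFR1 and high in both WT arrays, so host sex and loss of TNFR1 cannot be told apart there. With Xist signal as a covariate, an alternative chosen after seeing the data, 0 genes were called and Cdh5 had the smallest adjusted p, 0.0849.

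Tnfrsf1a itself read 7.69 and 8.2 in double-knockout arrays and 7.51 and 7.59 in TNFR1-/- arrays, against 7.95 and 8 in Myd88 cKO arrays and 8.3 and 8.09 in WT arrays. The groups overlapped through the second double-knockout array, and the difference was -0.34 ± 0.17 (95% interval -0.71 to 0.04, adjusted p = 0.646). It was -0.65 ± 0.2 between TNFR1-/- and WT hosts and -0.03 ± 0.2 between double-knockout and Myd88 cKO hosts. No source used here says whether the probes lie in the deleted part of the gene, so the signal does not settle the label of that array. Myd88, the adaptor of Toll-like and interleukin-1 receptors, read 7.78 and 8.32 in double-knockout arrays and 7.84 and 7.7 in Myd88 cKO arrays, against 9.68 and 9.46 in TNFR1-/- arrays and 10.03 and 9.64 in WT arrays, which separated the arrays by their Myd88 label. Without the second double-knockout array the contrast still called 0 genes, with a smallest adjusted p of 0.123.

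Among TNF ligands, receptors and proximal adaptors, 2 of 29 genes tested were higher and 4 lower at an unadjusted p under 0.05, none was called, and the median difference of the list was 0.02, against -0.01 over all genes tested. The shares over all genes tested, 3.68% higher and 4.16% lower at that p, stand beside this and every list count below. The ligand Tnf read 8.36 and 9.81 in double-knockout arrays and 9.68 and 8.96 in TNFR1-/- arrays, against 9.33 and 9.86 in Myd88 cKO arrays and 11.17 and 10.78 in WT arrays. WT arrays were the highest, and the other groups overlapped (difference -1.08 ± 0.36, adjusted p = 0.616). Tnfrsf1b, the second TNF receptor, differed by -0.57 ± 0.19, and Adam17, the protease that sheds TNF and its receptors, by -0.43 ± 0.18. Both had overlapping arrays. Of the signalling members, Traf1 differed by -0.35 ± 0.15, Birc2, a ubiquitin ligase of the receptor complex, by 0.37 ± 0.15, and Cyld, a deubiquitinase that limits it, by 0.9 ± 0.34. Cyld read 7.91 and 7.27 in double-knockout arrays and 7.69 and 8.4 in TNFR1-/- arrays, against 7.62 and 7.45 in Myd88 cKO arrays and 6.45 and 6.17 in WT arrays, so the WT arrays alone stood low. Ligands Lta (0.14 ± 0.1) and Ltb (0.39 ± 0.22), the adaptors Tradd (-0.15 ± 0.19) and Fadd (0.24 ± 0.13), the inhibitor Tnfaip3 (0.29 ± 0.19) and the necroptosis kinase Ripk3 (-0.1 ± 0.2) had intervals that included 0.

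Downstream of the receptor, the NF-kB list had 0 higher and 5 lower of 26 genes tested at an unadjusted p under 0.05, with a median of -0.11, and the inflammatory cytokine and chemokine list had 0 higher and 7 lower of 26, with a median of -0.22. Without the second double-knockout array the inflammatory list had 2 higher and 9 lower. Sdc4, a cell-surface proteoglycan, read 7.55 and 7.9 in double-knockout arrays and 7.71 and 7.57 in TNFR1-/- arrays, against 8.13 and 8.78 in Myd88 cKO arrays and 8.79 and 7.93 in WT arrays. All 4 arrays without TNFR1 were below the other 4 (difference -0.73 ± 0.21, adjusted p = 0.581). Sod2, the mitochondrial superoxide dismutase, differed by -1.21 ± 0.36, by -1.94 ± 0.4 between TNFR1-/- and WT hosts and by -0.49 ± 0.4 between double-knockout and Myd88 cKO hosts. Cxcl1, a neutrophil-attracting chemokine, read 5.56 and 5.6 in double-knockout arrays and 5.61 and 5.11 in TNFR1-/- arrays, against 6.23 and 6.61 in Myd88 cKO arrays and 5.88 and 5.64 in WT arrays. Its groups did not overlap, by a margin of hundredths (difference -0.62 ± 0.16, adjusted p = 0.58). Ccl5, which attracts T cells and monocytes, differed by -1.26 ± 0.34 and had overlapping arrays.

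Of the 28 lists, endothelial markers had the largest share of members at an unadjusted p under 0.05. Of 12 markers tested, 8 (66.7%) were lower and 0 higher at an unadjusted p under 0.05, 4 were lower in all arrays without TNFR1, and the median was -0.36. Over all genes tested 4.16% were lower at that p and 1.43% were lower in all 4 arrays. This list, like the others, was written with earlier results of these data known. Its member Vwf, named after its values were seen, lies within 10 Mb of Tnfrsf1a and was lower in all 4 arrays (-0.35 ± 0.12). Of the 11 members elsewhere 7 were lower and 0 higher at that p. The part of flanking sequence was not tested. With each of the 8 arrays left out in turn 5 to 8 of the 12 were lower and 0 higher, and the count was 5 without the second double-knockout, the second TNFR1-/- or the first Myd88 cKO array. Cdh5, the adherens junction cadherin of endothelium, read 5.9 and 6.13 in double-knockout arrays and 5.59 and 5.15 in TNFR1-/- arrays, against 8.04 and 7.84 in Myd88 cKO arrays and 6.69 and 6.4 in WT arrays. The groups did not overlap, the difference was -1.55 ± 0.19 (2.93-fold lower, 95% interval -1.97 to -1.13, adjusted p = 0.191), and it was -1.93 ± 0.21 with Myd88 deleted and -1.18 ± 0.21 with Myd88 intact. Emcn, an endothelial sialomucin, read 4.82 and 4.88 in double-knockout arrays and 4.45 and 4.62 in TNFR1-/- arrays, against 6.09 and 5.63 in Myd88 cKO arrays and 5.17 and 5.34 in WT arrays. This gene too was lower in all 4 (difference -0.87 ± 0.14, adjusted p = 0.427). Its values without TNFR1 sit below the low-signal bound of 5 to 5.14, the 40th percentile of each array. Emcn was therefore tested only because all 4 arrays with TNFR1 passed the filter. Its direction and lack of overlap follow from that filter and are no support, and it is included in the list counts above. Pecam1, which leukocytes also express and which is named after its values were seen, differed by 0.21 ± 0.25.

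Igfbp7, a secreted protein of vessels and stroma, read 7.71 and 8.27 in double-knockout arrays and 6.49 and 5.92 in TNFR1-/- arrays, against 9.55 and 9.32 in Myd88 cKO arrays and 8.7 and 7.64 in WT arrays. The difference was -1.71 ± 0.26 (adjusted p = 0.427), and the arrays overlapped only across Myd88 backgrounds. The mean signal of the 12 endothelial markers was 5.79 and 5.74 in double-knockout arrays and 5.55 and 5.52 in TNFR1-/- arrays, against 6.34 and 6.2 in Myd88 cKO arrays and 6.07 and 5.83 in WT arrays. The list mean, which includes Emcn, separated the arrays by TNFR1, at the closest by 5.79 (first double-knockout) against 5.83 (second WT). Between those arrays the Emcn values given above differ by about as much as that gap needs in a mean of 12. The separation of the list mean is therefore no support either. In bulk signals fewer cells of a type and less RNA per cell cannot be told apart.

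**Figure D1:**
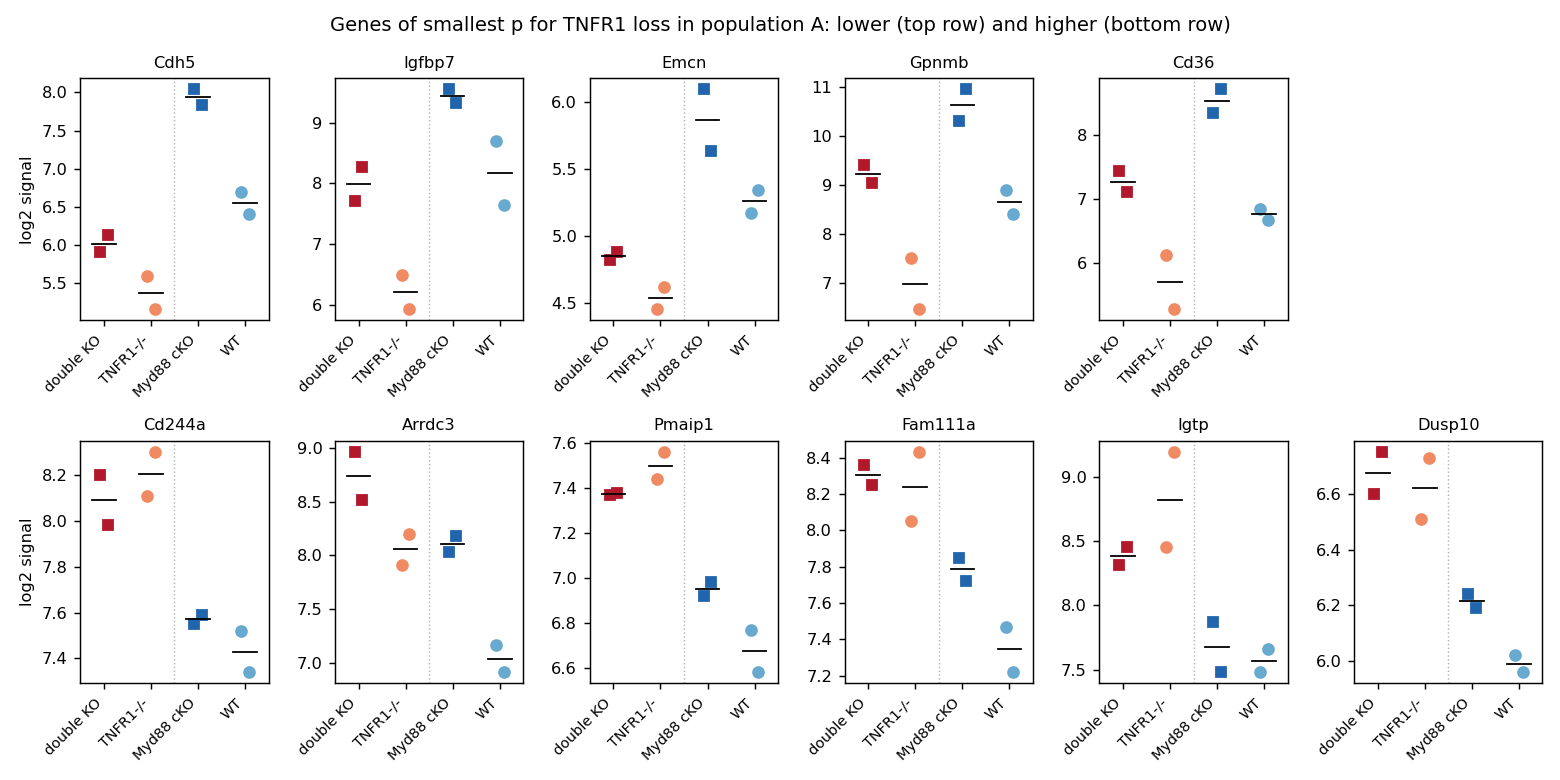
Log2 signal (vertical axis, own scale in each panel, not starting at 0) of 5 of the genes of smallest p among the lower ones (top row) and the 6 of smallest p among the higher ones (bottom row) in the 8 population A arrays. Points are arrays, black lines are means of 2 arrays, squares are Myd88-deleted hosts, and the dotted line parts hosts without TNFR1 (left) from hosts with it (right). Cdh5 and Emcn in the top row, and every bottom-row gene but Arrdc3, have no overlap between the sides. For Emcn that follows from the filter on low signals.

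Markers of mature macrophages had mostly lower values as well: 15 of 28 tested (53.6%) were lower and 0 higher at an unadjusted p under 0.05, with a median of -0.58. With an array left out 10 to 18 were lower and 0 or 1 higher. Of the 28 differences 26 were negative and 2 positive, the largest 0.64. Adgre1, a list member named after its values were seen, did not share the lower direction. It read 11.03 and 9.95 in double-knockout arrays and 10.22 and 11.03 in TNFR1-/- arrays. In Myd88 cKO arrays it read 10.63 and 10.29, and in WT arrays 9.78 and 8.98. Gpnmb, a glycoprotein of lipid-laden macrophages, read 9.41 and 9.04 in double-knockout arrays and 7.51 and 6.45 in TNFR1-/- arrays, against 10.3 and 10.95 in Myd88 cKO arrays and 8.9 and 8.4 in WT arrays. Within each Myd88 background both arrays without TNFR1 were the lower ones (difference -1.54 ± 0.25, adjusted p = 0.427). Axl, a receptor for apoptotic cells, read 6.99 and 7.39 in double-knockout arrays and 6.89 and 6.47 in TNFR1-/- arrays, against 8 and 8.96 in Myd88 cKO arrays and 8.13 and 7.74 in WT arrays, with no overlap. Its difference was -1.27 ± 0.22 and nearly the same in the 2 backgrounds, -1.29 ± 0.32 and -1.26 ± 0.32. The mean of the 28 markers was 7.52 and 7.42 in double-knockout arrays and 7.06 and 6.56 in TNFR1-/- arrays, against 8.13 and 8.62 in Myd88 cKO arrays and 7.26 and 6.88 in WT arrays. The Myd88 cKO arrays were the highest, and the means of TNFR1-/- and WT arrays overlapped.

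Lipid and cholesterol handling had 11 of 18 genes (61.1%) lower and 0 higher at an unadjusted p under 0.05 and a median of -0.45. With an array left out 5 to 10 were lower and 0 or 1 higher. Cd36, the fatty acid and oxidised lipoprotein receptor, read 7.45 and 7.11 in double-knockout arrays and 6.13 and 5.28 in TNFR1-/- arrays, against 8.35 and 8.72 in Myd88 cKO arrays and 6.85 and 6.68 in WT arrays. The arrays without TNFR1 were the lower ones in each background (difference -1.16 ± 0.19, adjusted p = 0.427). Fabp4, a fatty acid carrier, differed by -1.2 ± 0.21. Among matrix and growth factor genes, 8 of 29 were lower and 1 higher at an unadjusted p under 0.05. Of the 29 differences 18 were negative and 11 positive. With an array left out 7 to 9 were lower and 0 to 6 higher. Mmp14, a membrane-bound collagenase, read 7.56 and 8.03 in double-knockout arrays and 6.88 and 5.91 in TNFR1-/- arrays, against 8.78 and 9.33 in Myd88 cKO arrays and 9.12 and 8.11 in WT arrays, with no overlap (difference -1.74 ± 0.32, 3.34-fold lower). Pdgfa, a growth factor for mesenchymal cells, differed by -0.51 ± 0.1, also with no overlap.

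C-type lectins and pattern receptors had 11 of 26 members (42.3%) lower and 0 higher at an unadjusted p under 0.05, with a median of -0.52. Gpr84, a receptor for medium-chain fatty acids that inflammatory stimuli induce, read 6.43 and 7.09 in double-knockout arrays and 5.46 and 5.52 in TNFR1-/- arrays, against 7.24 and 7.55 in Myd88 cKO arrays and 8.06 and 7.9 in WT arrays. No arrays overlapped (difference -1.56 ± 0.34, adjusted p = 0.536), and the difference was -2.49 ± 0.23 with Myd88 intact and -0.64 ± 0.23 with Myd88 deleted (difference between backgrounds 1.86 ± 0.33, adjusted p = 0.608). Clec7a, the beta-glucan receptor dectin-1, differed by -0.82 ± 0.2. It lies within 10 Mb of Tnfrsf1a, as do 8 of the 26 list members, which hold 4 of the 11 lower ones: Clec7a, and, named after their values were seen, Clec4d, Clec4e and Clec4n. Of the 18 members elsewhere 7 were lower and 0 higher. In that flank 19 of 189 genes (10.1%) had an unadjusted p under 0.05, against 1168 of 14946 other genes (7.81%), and the part of flanking sequence from the knockout's source strain was not tested.

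**Figure D2:**
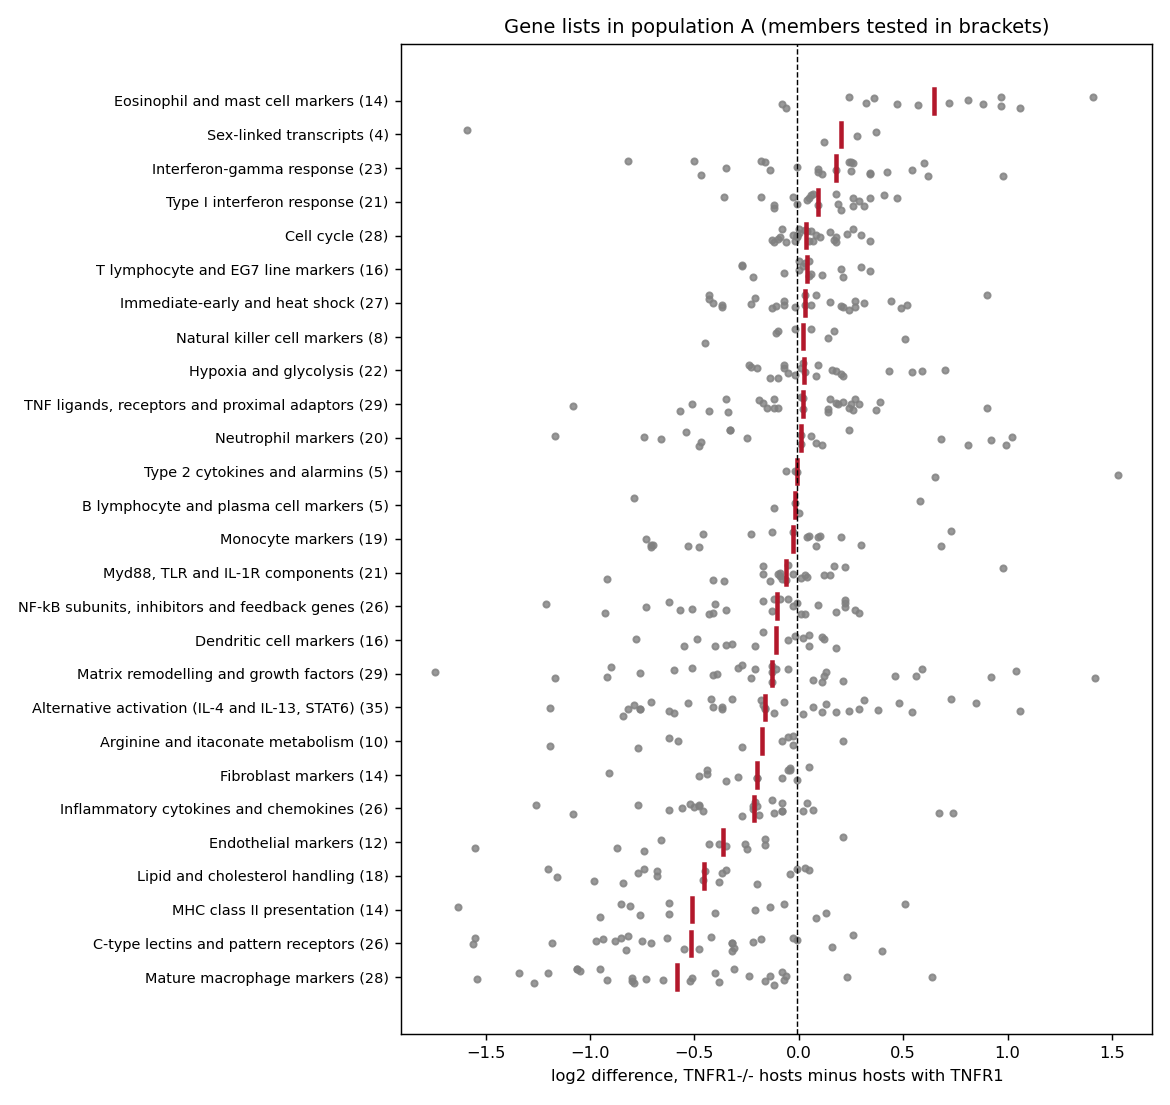
Log2 difference, hosts without TNFR1 minus hosts with TNFR1 (horizontal axis), of each tested member (grey points) of the gene lists in population A, ordered by list median (red bars). The dashed line is the median of all genes tested (-0.01), and medians run from -0.58 for mature macrophage markers to 0.65 for eosinophil and mast cell markers.

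Interferon-gamma response genes went the other way: 7 of 23 tested (30.4%) were higher and 0 lower at an unadjusted p under 0.05, 4 of them were higher in all arrays without TNFR1, and the median was 0.18. Over all genes tested 3.68% were higher at that p and 1% were higher in all 4 arrays. Without the second double-knockout array 4 were higher and 5 lower, and without the first Myd88 cKO array 4 were higher and 1 lower. With any other array left out 4 to 8 were higher and 0 lower. The one-sided count thus depended on single arrays. Igtp and Irgm2, which neighbour each other on chromosome 11 and encode GTPases that defend cells against intracellular pathogens, were the members of smallest p. Their promoter windows, 300 bases around the gene start in RefSeq's GRCm38.p6, are shown because the related pair differed in the same direction. Capitals mark matches of TTCNNNGAA (STAT) and of the interferon-stimulated response element (ISRE, here GAAA, any 2 bases and GAAA).
Igtp (chr11:58199306-58199605, plus strand): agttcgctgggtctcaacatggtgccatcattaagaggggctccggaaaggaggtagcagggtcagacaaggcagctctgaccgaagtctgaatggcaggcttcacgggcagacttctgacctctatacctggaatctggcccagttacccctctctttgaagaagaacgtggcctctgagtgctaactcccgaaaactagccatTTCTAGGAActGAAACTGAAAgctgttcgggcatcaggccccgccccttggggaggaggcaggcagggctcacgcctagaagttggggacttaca
Irgm2 (chr11:58214727-58215026, plus strand): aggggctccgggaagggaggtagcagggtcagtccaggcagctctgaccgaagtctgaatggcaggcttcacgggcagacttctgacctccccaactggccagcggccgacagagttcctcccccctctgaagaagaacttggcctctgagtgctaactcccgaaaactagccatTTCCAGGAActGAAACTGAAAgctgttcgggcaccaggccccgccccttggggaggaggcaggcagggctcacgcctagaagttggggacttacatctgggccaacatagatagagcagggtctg
Both strands were searched, the matches do not overlap, and both windows hold both motifs in the same order and spacing. Of 32851 promoter windows, 8.3% hold the STAT letters and 3.44% the ISRE letters, and a match is a description of letters only.

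Igtp read 8.31 and 8.45 in double-knockout arrays and 8.45 and 9.19 in TNFR1-/- arrays, against 7.87 and 7.48 in Myd88 cKO arrays and 7.48 and 7.66 in WT arrays. All 4 arrays without TNFR1 were above the other 4 (difference 0.98 ± 0.19, adjusted p = 0.474). Irgm2 read 7.62 and 8.18 in double-knockout arrays and 7.75 and 7.94 in TNFR1-/- arrays, against 7.24 and 7.3 in Myd88 cKO arrays and 7.42 and 7.15 in WT arrays, again with no overlap (difference 0.6 ± 0.15). The chemokines Cxcl9 and Cxcl10 of the same list, named after their values were seen, did not share that direction: they differed by -0.82 ± 0.4 and -0.5 ± 0.38. The type I interferon list had 1 of 21 higher, Zbp1, a sensor of unusual nucleic acids (0.41 ± 0.12, no overlap), and 0 lower, with a median of 0.09.

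The other genes of smallest p among the higher ones had differences of 0.55 to 0.83. Cd244a, an inhibitory or activating receptor of natural killer cells also found on myeloid cells, read 8.2 and 7.98 in double-knockout arrays and 8.11 and 8.3 in TNFR1-/- arrays, against 7.55 and 7.59 in Myd88 cKO arrays and 7.52 and 7.34 in WT arrays. It did not overlap (difference 0.65 ± 0.12, adjusted p = 0.427). Pmaip1, the pro-apoptotic BH3-only protein Noxa, read 7.37 and 7.38 in double-knockout arrays and 7.44 and 7.56 in TNFR1-/- arrays, against 6.92 and 6.98 in Myd88 cKO arrays and 6.77 and 6.58 in WT arrays, with no overlap (difference 0.63 ± 0.12, adjusted p = 0.474). Fam111a (0.71 ± 0.14), a protease that restricts viruses, and Dusp10 (0.55 ± 0.11), a phosphatase of p38 and JNK kinases, also did not overlap, whereas Arrdc3 (0.83 ± 0.15), an arrestin-related protein, did. Among immediate-early genes Klf2, a transcription factor of quiescent leukocytes and endothelium, differed by 0.9 ± 0.22 with no overlap.

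The cytokines Il13 and Il4 and most eosinophil genes named here had higher values in TNFR1-/- than in WT hosts and smaller differences between double-knockout and Myd88 cKO hosts, with wide spread among arrays and no call. The type 2 cytokine and alarmin list as a whole had 1 of 5 tested members higher and 0 lower, with a median of -0.01. In it Il4 differed by 0.65 ± 0.32, Il25 by -0.06 ± 0.17, Il33 by -0.02 ± 0.11 and Tslp by -0.01 ± 0.11. The eosinophil and mast cell list had 3 of 14 tested members higher and 0 lower at an unadjusted p under 0.05, and its median was 0.65 over both backgrounds, 1.31 with Myd88 intact and 0.08 with Myd88 deleted. That count was 10 without the second double-knockout array, 7 without the first Myd88 cKO array, and 0 without the first double-knockout, the second TNFR1-/- or either WT array. Il13, the type 2 cytokine that drives alternative macrophage activation, read 10.78 and 9.18 in double-knockout arrays and 9.63 and 11.13 in TNFR1-/- arrays, against 10.58 and 8.96 in Myd88 cKO arrays and 7.48 and 7.58 in WT arrays. The WT arrays were the lowest 2 of the 8, and the difference was 1.53 ± 0.63 (95% interval 0.11 to 2.95, adjusted p = 0.636), 2.85 ± 0.68 with Myd88 intact and 0.21 ± 0.68 with Myd88 deleted. The difference between those backgrounds was -2.64 ± 0.96 (adjusted p = 0.796). Ccr3, the eotaxin receptor of eosinophils, read 10.19 and 8.94 in double-knockout arrays and 9.66 and 10.4 in TNFR1-/- arrays, against 9.77 and 9.2 in Myd88 cKO arrays and 7.84 and 6.76 in WT arrays. Its WT arrays were also the lowest (difference 1.41 ± 0.54, adjusted p = 0.628), as were those of Il5ra, the interleukin-5 receptor (0.97 ± 0.36), Alox15, a lipoxygenase (1.06 ± 0.46), and the lectin Siglecf (0.97 ± 0.55). Epx, the eosinophil peroxidase, differed by -0.06 ± 0.18 and read 5.4 to 6.05 in all 8 arrays.

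Alternative activation genes, the targets of interleukin-4 and interleukin-13 through Stat6, had 2 of 35 tested members higher and 8 lower at an unadjusted p under 0.05, with a median of -0.16. The median was 0.17 with Myd88 intact and -0.5 with Myd88 deleted. Clec7a (-0.82 ± 0.2), the arginine transporter Slc7a2 (-1.19 ± 0.3) and the scavenger receptor Msr1 (-0.84 ± 0.24) were the members of smallest p. Chil3, a chitinase-like protein, read 8.21 and 7.81 in double-knockout arrays and 7.42 and 7.3 in TNFR1-/- arrays, against 9.36 and 9.38 in Myd88 cKO arrays and 7.6 and 7.23 in WT arrays. Its Myd88 cKO arrays alone stood high, so that the difference was -1.36 ± 0.2 with Myd88 deleted and -0.06 ± 0.2 with Myd88 intact (difference between backgrounds -1.31 ± 0.28, adjusted p = 0.614). Retnla, a resistin-like protein made by alternatively activated macrophages and eosinophils, read 10.76 and 8.84 in double-knockout arrays and 8.92 and 9.8 in TNFR1-/- arrays, against 10.63 and 10.02 in Myd88 cKO arrays and 7.25 and 7.03 in WT arrays. It was lowest in WT arrays, like Il13 (2.22 ± 0.56 with Myd88 intact, -0.53 ± 0.56 with Myd88 deleted, adjusted p = 0.721 for the average). Arg1, arginase 1, differed by -0.62 ± 0.37 and Mrc1, the mannose receptor, by -0.12 ± 0.39, both with intervals that included 0.

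Several cell type lists moved with TNFR1 or with single host groups, and their part in the results above was not tested. The mean of 14 eosinophil and mast cell markers was 8.17 and 6.89 in double-knockout arrays and 7.18 and 7.85 in TNFR1-/- arrays, against 7.72 and 7.1 in Myd88 cKO arrays and 6.62 and 6.17 in WT arrays, so it was lowest in WT. The mean of 16 T lymphocyte and EG7 line markers was 6.68 and 6.73 in double-knockout arrays and 5.79 and 5.74 in TNFR1-/- arrays, against 6.02 and 6.29 in Myd88 cKO arrays and 6.28 and 6.21 in WT arrays. Double-knockout arrays held the most T-lineage signal and TNFR1-/- arrays the least. Fibroblast markers had means of 6.85 and 7.01 in double-knockout arrays and 6.02 and 6.03 in TNFR1-/- arrays. Their means were 6.73 and 6.67 in Myd88 cKO arrays and 6.97 and 6.52 in WT arrays, so TNFR1-/- arrays were the lowest. The fibroblast median difference was -0.7 with Myd88 intact and 0.06 with Myd88 deleted. Neutrophil markers had means of 6.56 to 7.09 without TNFR1 and 6.74 to 6.98 with it. Among monocyte markers Ly6c2, part of the sort gate's antigen, read 12.42 and 12.2 in double-knockout arrays and 12.4 and 12.93 in TNFR1-/- arrays, against 11.79 and 11.31 in Myd88 cKO arrays and 12.01 and 12.12 in WT arrays, with no overlap (difference 0.68 ± 0.16, adjusted p = 0.566). Cx3cr1, the fractalkine receptor, differed by -0.7 ± 0.19, also with no overlap. The MHC class II presentation list, which covers the other side of the gate, had 4 of 14 lower and 0 higher with a median of -0.51. The lower ones were the protease Ctss (-0.81 ± 0.24), the class II chains H2-Ab1 (-0.95 ± 0.37) and H2-Eb1 (-0.85 ± 0.37), both named after their values were seen, and H2-M2 (-1.63 ± 0.37), which is a nonclassical class I gene and no class II gene. With an array left out 2 to 8 were lower and 0 or 1 higher. Cell cycle genes had 0 higher and 0 lower of 28, hypoxia and glycolysis genes 1 higher and 0 lower of 22, and dendritic cell markers 0 and 0 of 16. The cell cycle median was 0.34 with Myd88 deleted and -0.3 with Myd88 intact, so opposite directions met in the average. Cell cycle means were highest in double-knockout arrays (6.77 and 6.74) and lowest in TNFR1-/- arrays (5.88 and 5.82).

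**Figure D3:**
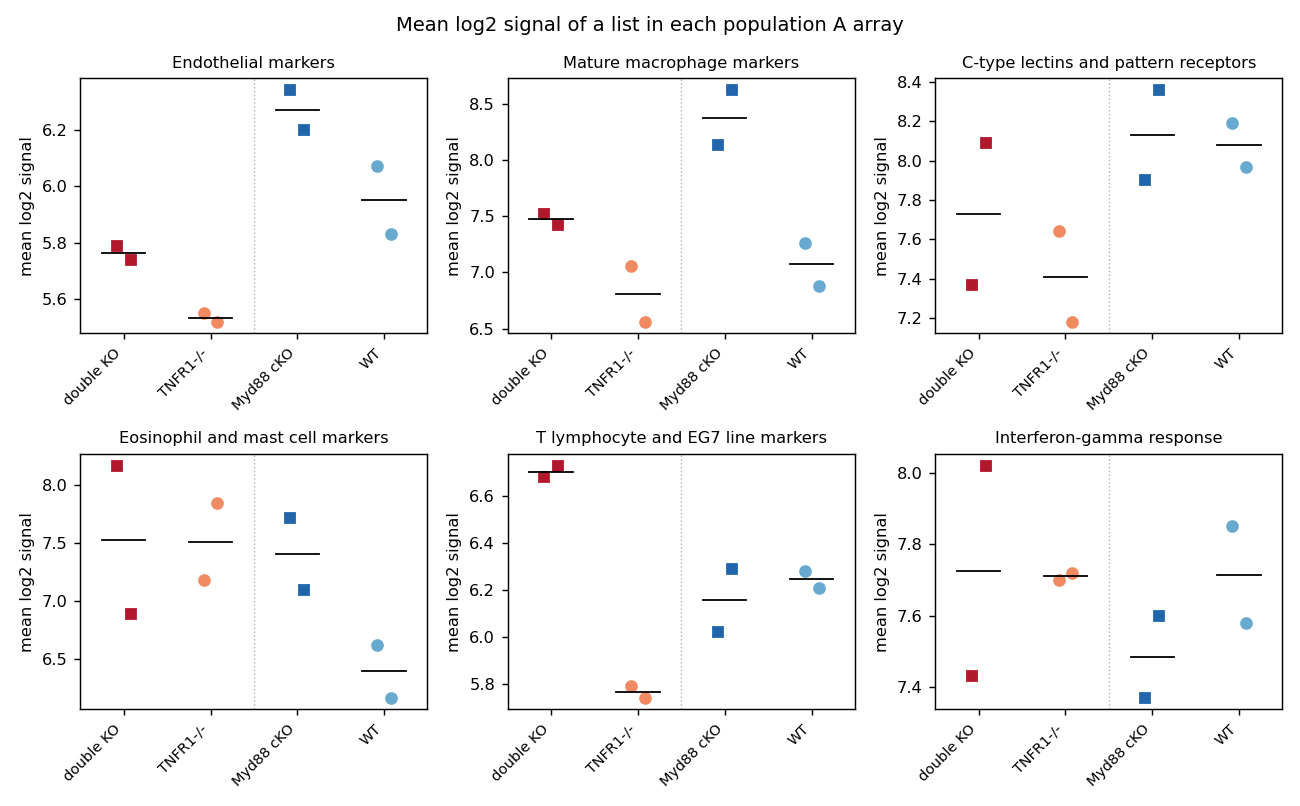
Mean log2 signal of the tested members of 6 gene lists (vertical axis, own scale in each panel, not starting at 0) in each population A array, drawn as in the plot of single genes, with hosts without TNFR1 on the left. Endothelial means do not overlap between the sides (5.52 to 5.79 against 5.83 to 6.34), but they include Emcn, whose direction follows from the filter on low signals. That lack of overlap is therefore no support. Eosinophil means are lowest in WT, and T lymphocyte means are highest in double-knockout arrays.

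The next question was whether the loss of TNFR1 had a different effect when Myd88 was deleted. No gene was called for that difference (0 of 15135, 0%), the smallest adjusted p was 0.0695, and 929 genes (6.14%) had an unadjusted p under 0.05, a count that ran from 413 without the second TNFR1-/- array to 2555 without the second WT array. With Xist signal as a covariate, chosen after seeing the data, 416 genes had an unadjusted p under 0.05 and 0 were called. On simulated arrays this fit recovered 8% of genes given a difference of 1 log2 unit and 95% of those given 2. The lack of calls therefore says little about differences of 1 log2 unit. The 3 genes of smallest p belong to the T-cell receptor complex, which EG7 cells and T lymphocytes carry: the variable segment Trav9d-3 and the CD3 chains Cd3e and Cd3g. Trav9d-3 read 9.91 and 10.16 in double-knockout arrays and 8.11 and 8.91 in Myd88 cKO arrays, and 6.65 and 6.53 in TNFR1-/- arrays against 9.37 and 8.87 in WT arrays. Its difference was 1.53 ± 0.28 with Myd88 deleted and -2.53 ± 0.28 with Myd88 intact. Cd3e had a difference of 1.38 ± 0.2 with Myd88 deleted and -1.16 ± 0.2 with Myd88 intact (adjusted p of the difference = 0.101), and Cd3g had 1.7 ± 0.23 and -1.11 ± 0.23 (adjusted p = 0.101). These directions are opposite in the 2 backgrounds. The T-lineage means given above have the same pattern, but Cd3e and Cd3g are members of that list, so the means are no independent support. Without the second double-knockout array 10 genes were called, 1 higher and 9 lower.

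The effect of TNFR1 loss in population A was then set against that in population C, whose arrays it does not share. It differed for 12 of 15902 genes (0.0755%), 11 with a lower value in population A (0.0692%) and 1 with a higher value (0.00629%). For 11 of the 12 the effect was called in population C and not in population A, and for the other, Cdh5, it was called in population A and not in population C of the same 16-array fit. Without the second double-knockout array of population A there were 83 such genes, 39 higher and 44 lower, and without the second Myd88 cKO array of population C there were 7. In population C as a whole 161 genes (1.01%) were called, 68 higher (0.428%) and 93 lower (0.585%). The labels do not say whether arrays of the 2 populations came from the same mice. In population C Xist read 5.19 and 10.44 in double-knockout arrays and 5.6 and 9.83 in TNFR1-/- arrays. It read 4.97 and 5.68 in Myd88 cKO arrays and 10.14 and 10.29 in WT arrays there. Its pattern over the host groups thus differed from that in population A. With Xist signal as a covariate, chosen after seeing the data, this contrast called 11 genes, all lower.

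Cd209d, a C-type lectin of the DC-SIGN family, read 5.14 and 5.04 in double-knockout arrays and 4.94 and 5.34 in TNFR1-/- arrays of population A, against 4.76 and 5.49 in Myd88 cKO arrays and 5.31 and 5.16 in WT arrays. In population C it read 7.64 and 7.81 in double-knockout arrays and 7.75 and 7.63 in TNFR1-/- arrays, against 5.27 and 5.1 in Myd88 cKO arrays and 5.82 and 5.5 in WT arrays. The effect was -0.07 ± 0.16 in population A and 2.29 ± 0.16 in population C (difference -2.35 ± 0.22, adjusted p = 0.000256). All 8 population A arrays were near the low-signal bound.

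Ccl17, a chemokine for type 2 T cells made by alternatively activated macrophages and dendritic cells, read 4.93 and 4.79 in double-knockout arrays and 5.43 and 5.15 in TNFR1-/- arrays of population A, against 5.41 and 6.11 in Myd88 cKO arrays and 5.22 and 4.83 in WT arrays. In population C it read 9.8 and 10.35 in double-knockout arrays and 9.14 and 8.07 in TNFR1-/- arrays, against 7.1 and 6.8 in Myd88 cKO arrays and 5.99 and 5.96 in WT arrays. Its effect was -0.32 ± 0.26 in population A and 2.88 ± 0.26 in population C (difference -3.2 ± 0.37, adjusted p = 0.00189). Its RefSeq promoter window of GRCm38.p6 is shown because its difference was the largest of the 12, with TTC and GAA parted by 4 bases, the spacing Stat6 prefers, and TTCNNNGAA in capitals.
Ccl17 (chr8:94810203-94810502, plus strand): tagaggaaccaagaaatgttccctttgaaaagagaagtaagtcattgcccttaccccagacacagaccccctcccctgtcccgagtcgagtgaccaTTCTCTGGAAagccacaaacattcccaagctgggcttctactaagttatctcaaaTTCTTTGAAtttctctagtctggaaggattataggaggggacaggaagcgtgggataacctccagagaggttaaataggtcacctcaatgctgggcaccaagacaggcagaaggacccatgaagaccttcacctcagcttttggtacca
The first capital run is the Stat6 spacing, found in 6.95% of promoter windows, and the second is the STAT letters. Both strands were searched and the runs do not overlap. Of the other windows searched, that of Mgl2 held neither set of letters. Those of Cd36 and Emcn, which had lower values without TNFR1 in population A, held the Stat6 spacing too. The match in Ccl17 is thus a description of letters only and is not tied to a direction.

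Mgl2, a galactose-type lectin of alternatively activated macrophages, had an effect of -0.16 ± 0.25 in population A and 2.68 ± 0.25 in population C (adjusted p of the difference = 0.00341). Ccr7, the receptor that takes dendritic cells to lymph nodes, had -0.49 ± 0.21 in population A and 1.88 ± 0.21 in population C (adjusted p = 0.00341). Edn1, the peptide endothelin-1, and Ednrb, one of its receptors, had -0.32 ± 0.11 and -0.17 ± 0.14 in population A, and 0.89 ± 0.11 and 1.22 ± 0.14 in population C (adjusted p = 0.00341 and 0.00788). Of the alternative activation list 11 of 37 members were called higher and 0 lower in population C, where 0.428% of all genes were called higher, and 0 of 35 were called in population A. That list was written with these results known, so its count is no independent evidence of a direction. Cdh5 read 5.15 to 6.13 without TNFR1 and 6.4 to 8.04 with it in population A, and 5.37 to 5.78 without TNFR1 and 5.39 to 5.79 with it in population C (effects -1.55 ± 0.16 and -0.07 ± 0.16, difference -1.48 ± 0.22, adjusted p = 0.0126).

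**Figure D4:**
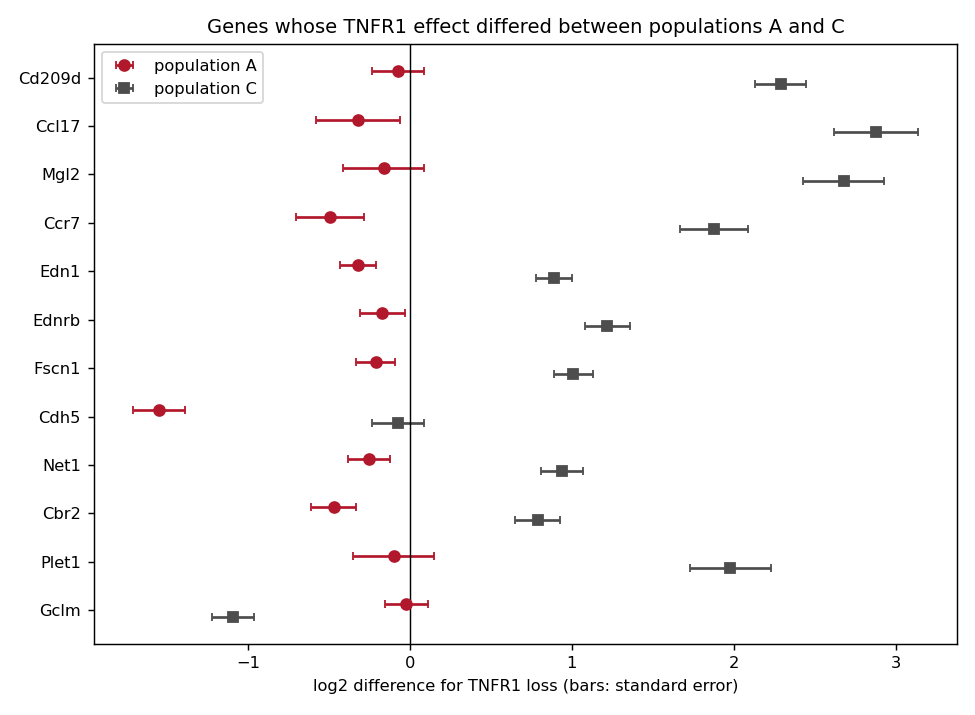
Log2 difference for the loss of TNFR1 (horizontal axis, bars are standard errors) in population A (red circles) and population C (grey squares) for the 12 genes whose effect differed between the populations, from the fit of all 16 sorted arrays. In population A 11 of the 12 lie between -0.49 and -0.02 and Cdh5 lies at -1.55.

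Sharing the spread with the population C arrays brought 20 genes below an adjusted p of 0.05 in population A. Among double-knockout arrays the count was 3 without the first and 732 without the second, and among TNFR1-/- arrays 46 without the first and 5 without the second. Among Myd88 cKO arrays it was 42 without the first and 4 without the second, and among WT arrays 4 without the first and 64 without the second. With all arrays Cdh5 (adjusted p = 0.000691 in that fit), Igfbp7 (0.00376), Axl (0.0169), Mmp14 (0.0169), Emcn (0.0434), Gpnmb (0.0434) and Gpr84 (0.0441) fell, and Cd244a (0.0434) and Fam111a (0.0441) rose. The rest, named after their values were seen, include Cxcl16, a chemokine and scavenger receptor (-1.65 ± 0.24), Eng, the endothelial co-receptor endoglin (-0.74 ± 0.12), Plpp3, a lipid phosphatase (-1.02 ± 0.18), Acp5, a macrophage and osteoclast phosphatase (-1.06 ± 0.18), and Cd34, a progenitor and endothelial sialomucin (-0.85 ± 0.15). By list, 3 of 13 endothelial markers tested in that fit and 3 of 28 mature macrophage markers fell and none rose. Emcn is among the 3 endothelial ones. Its values without TNFR1 in population A were below the low-signal bound, so it is no support here either. Over all genes of that fit 0.101% fell and 0.0252% rose, and the lists were written with earlier results of these data known. In population C of that fit, where 1.01% of all genes were called, Gpr84 (-2.24 ± 0.28, adjusted p = 0.000647), Plpp3 (-1.37 ± 0.18, 0.000764), Acp5 (-1.22 ± 0.18, 0.00272), Mmp14 (-1.18 ± 0.25, 0.0357) and Gpnmb (-1.16 ± 0.26, 0.0417) fell too. The difference between populations was not called for Axl (-1.1 ± 0.26, adjusted p = 0.229) or Gpnmb (-0.37 ± 0.37, adjusted p = 0.941).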

How the data were processed

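RNA (100 ng an array) from sorted cells was measured on Mouse Gene 2.0 ST arrays. The deposited values are log2 signals, which the authors made with RMA (Affymetrix Expression Console, version 1.1), as recorded per the labels' processing fields and the submitters' processing notes. RMA puts arrays on one distribution, so a global shift in RNA content is removed. No source used here says which arrays entered one RMA run.

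Of 41345 probe sets 23521 had 1 gene symbol, 1814 several and 16010 none, and 23328 matched RefSeq's GRCm38.p6 table. A gene was its probe set of highest mean (22180 genes), tested if above the 40th percentile of the array in at least 4 arrays. Linear models with moderated variances came from limma 3.58.1 (R version 4.3.3). The p-values are two-sided and were adjusted by Benjamini-Hochberg across the whole set of genes in the fit, with a threshold of 0.05. The fits were TNFR1 plus Myd88 status on 8 arrays (5 residual degrees of freedom), their interaction (4), and population A minus population C on 16 arrays with Myd88 status within population (10). The number of arrays limits the precision. Nothing says that arrays came from separate mice or pools, so p-values measure only the spread between these samples. The fits were tested on simulated data.

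The comparison, its gene lists and the genes singled out were chosen with earlier results of these data known. Names in the text come from Tnfrsf1a and Myd88, the 6 genes of smallest p on each side, the 2 of smallest p in each list, any member of the TNF, alternative activation, type 2 and eosinophil lists, 3 genes of the interaction and 6 called between populations. Any other gene was named after its values were seen. Not every gene that these rules pick is given, and predicted genes and microRNAs were only counted. The 16 arrays of CD11b-positive cells on another chip were not used here. Alternatives were the filter, probe set choice, normalization, variance model, blocks, Xist as a covariate and each array left out.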

Additional observations from a re-analysis of the deposited data

Results flagged for a closer look

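In 6 of 194 groups of 4 arrays examined, 1 array stood far from the other 3, and chance gives about 1 in 20. Among hosts without TNFR1, Igtp read 9.19 in the second TNFR1-/- array, Cxcl1 read 5.11 in the same array, Xist read 10.22 in the first double-knockout array, and natural killer cell markers had a mean of 6.55 in the second double-knockout array. Among hosts with TNFR1, Nos2 read 8.22 and Mcm5 read 7 in the second Myd88 cKO array.

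The effect of TNFR1 loss differed between populations, by limma's test of population A minus population C, for Cd209d (-2.35), Ccl17 (-3.20), Mgl2 (-2.84), Ccr7 (-2.37), Edn1 (-1.22), Ednrb (-1.39), Fscn1 (-1.21), Cdh5 (-1.48), Net1 (-1.19), Cbr2 (-1.26), Plet1 (-2.08) and Gclm (1.07). Adjusted p-values ran from 0.000256 for Cd209d to 0.0437 for Gclm. Gclm, a subunit of the enzyme that starts glutathione synthesis, had an effect of -0.02 ± 0.13 in population A and -1.09 ± 0.13 in population C.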

How the results depend on the processing

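The contrast in population A called 0 genes under the other filters, probe set rule, normalization, variance models and blocks tried, with each of the 8 arrays left out, and within either Myd88 background. It called 29 genes in the planned fit of all 16 sorted arrays as 8 groups, and 20 with Myd88 status as a block within population, a fit chosen after seeing the data. The 16-array fits have more residual degrees of freedom by construction, and the count of 20 ran from 3 to 732 with a population A array left out. For Cdh5 the difference ran from -1.93 to -1.18 over 23 alternatives and its adjusted p from 0.000191 to 0.914. The interaction called 1 gene after quantile normalization and 0 to 10 with an array left out, and 10 without the second double-knockout array. Population A minus population C called 21 genes with array weights and 7 to 83 with an array left out; the causes were not tested.

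A pairing of samples by replicate number was not shown: deviations of same-numbered arrays correlated above 0.1 in 8 of 28 pairs of groups (-0.51 to 0.38). With 1 deviation in each group these values cannot exclude a pairing. With the replicate block the contrast called 0 genes, the interaction 0, and population A minus population C 11.

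Among genes named or listed, the direction was reversed in Myd88-intact hosts alone for Mcm2 (-0.13), Mcm5 (-0.34), Itgax (0.14), Rhox5 (-0.04) and Gzmb (-0.38), in Myd88-deleted hosts alone for Xist (1.27), Kdm5d (-0.68) and Col3a1 (0.06), and for Kdm5d with array weights (-0.17) and with Xist as a covariate (-0.17). Of the other values of such genes 1528 kept direction and side of the threshold and 24 newly passed it. List medians moved by less than the median standard error of their members in 595 cases and by more in 26. Low signals limit Emcn, Cd209d and Ccl17 in population A.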

Other observations

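Small RNA genes were tilted to higher values in hosts without TNFR1: 22 of 220 tested were higher and 5 lower at an unadjusted p under 0.05 (median difference 0.06), against 511 higher and 591 lower of 13671 protein-coding genes (median -0.01). No source used here gives RNA quality, and its part in this was not tested.

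Other lists held few genes at an unadjusted p under 0.05. Arginine and itaconate metabolism had 3 of 10 lower, among them Slc7a2 and the nitric oxide synthase Nos2 (-0.77 ± 0.28), and 0 higher. Neutrophil markers had 1 of 20 higher and 4 lower, with the calprotectin subunit S100a8 lower in all 4 arrays without TNFR1 (-0.74 ± 0.19). Its values of 4.24 to 4.93 there were below the low-signal bound. S100a8 was thus tested only because all 4 arrays with TNFR1 passed the filter, and its direction follows from that. In the B lymphocyte list the immunoglobulin heavy chain Ighm was higher in all 4 (0.58 ± 0.14) and Cd22 differed by -0.79 ± 0.21. Of the Myd88, TLR and IL-1R components 2 of 21 were lower and 1 higher, led by the kinase Ikbke (-0.92 ± 0.29) and the interleukin-18 receptor subunit Il18rap (0.98 ± 0.38).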
